A study of Mus musculus with 10 samples.

Results

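The mRNA levels of 9 receptors for noradrenaline and adrenaline (Adrb1, Adrb3, Adra1a and Adra2a), histamine (Hrh2), lactate (Hcar1), prostaglandin E2 (Ptger3) and adenosine (Adora1 and Adora2a) were described in interscapular brown adipose tissue (iBAT). The genes were chosen by name, with earlier results of the same comparison known, and are 9 of the 55414 genes counted. Their differences between the genotypes are therefore given as a description, with no test of the members as a set. RNA came from 5 male C57BL/6J mice that were RetSat flox/flox without the Ucp1-Cre transgene (Cre-) and 5 male C57BL/6J mice that were RetSat flox/flox and carried it (Cre+), all aged 12 to 14 weeks and kept on normal chow. Both genotypes thus carry the floxed alleles, and the controls carry no Cre. The Ucp1 promoter drives Cre in brown adipocytes, so vessels, nerves, immune cells and other cells of the tissue keep RetSat, the gene of the endoplasmic reticulum enzyme retinol saturase. RNAseq counts were used to ask how far the receptors that raise or lower cAMP differed in iBAT when RetSat was deleted there.

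All 9 genes encode G protein-coupled receptors. The beta-adrenergic receptors, the histamine H2 receptor (Hrh2) and an adenosine receptor (Adora2a) couple to Gs, which activates adenylyl cyclase. In brown adipocytes, the resulting cAMP activates protein kinase A, which starts lipolysis and induces thermogenic genes such as Ucp1. The alpha-2A-adrenergic receptor (Adra2a), the lactate receptor (Hcar1), the prostaglandin E2 receptor EP3 (Ptger3) and another adenosine receptor (Adora1) couple to Gi, which inhibits adenylyl cyclase and restrains lipolysis. The alpha-1A-adrenergic receptor (Adra1a) couples to Gq and raises intracellular calcium.

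The libraries held 91903095 to 132499312 counts in Cre- and 96991071 to 110293494 counts in Cre+ mice. Levels are given in CPM, counts scaled to the library total, after TMM scaling, and 17690 genes that passed a filter on low counts were tested by edgeR, including all 9 receptors. RetSat itself averaged 185 CPM (SD 42.3) in the 5 Cre- mice and 23.9 CPM (SD 8.63) in the 5 Cre+ mice, where Cre+ replicate 3 kept the most, 39.0 CPM against 18.0 to 23.0 CPM in the other Cre+ mice. The brown adipocyte transcript Ucp1 had 3577 to 5145 CPM in Cre- and 3678 to 5921 CPM in Cre+ mice, and the adipocyte transcript Adipoq had 767 to 942 and 729 to 985 CPM. Summed skeletal muscle markers reached 519 CPM in Cre- replicate 2 and 255 CPM in Cre+ replicate 4, against 1.35 to 19.5 CPM in the other mice. Cre+ replicates 1, 4 and 5, and no Cre- library, carry an added letter in their identifier, whose meaning is not given in the sources used here.

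Adrb3 was the most abundant of the 9 transcripts in both genotypes when levels were divided by exonic length. In Cre- mice, it had 56.1 ± 9.49 CPM per kb (SD, n = 5), followed by Adora1 with 20.2 ± 2.44, Hcar1 with 13.6 ± 4.47, Ptger3 with 11.3 ± 2.89, Adrb1 with 9.21 ± 1.01 and Adra1a with 9.05 ± 1.26 CPM per kb. Adora2a had 3.42 ± 0.321, Hrh2 0.349 ± 0.0993 and Adra2a 0.0299 ± 0.0263 CPM per kb. The ranges over mice overlapped between each receptor from Adora1 to Adrb1 and the next in this order, and did not overlap at the other steps. Cre+ mice differed in the order of the middle ranks. Hcar1, with 22.0 ± 5.12 CPM per kb, then stood beside Adora1, with 21.1 ± 3.56 CPM per kb, and Adrb1, with 14.7 ± 5.09 CPM per kb, came before Ptger3, with 12.4 ± 3.59 CPM per kb. Adrb3 at the top (76.8 ± 16.9 CPM per kb) and Adora2a (3.48 ± 0.838), Hrh2 (0.743 ± 0.125) and Adra2a (0.0270 ± 0.0131 CPM per kb) at the bottom kept their places. In these bulk samples, fewer cells of a type and less RNA per cell cannot be told apart.

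**Figure D1:**
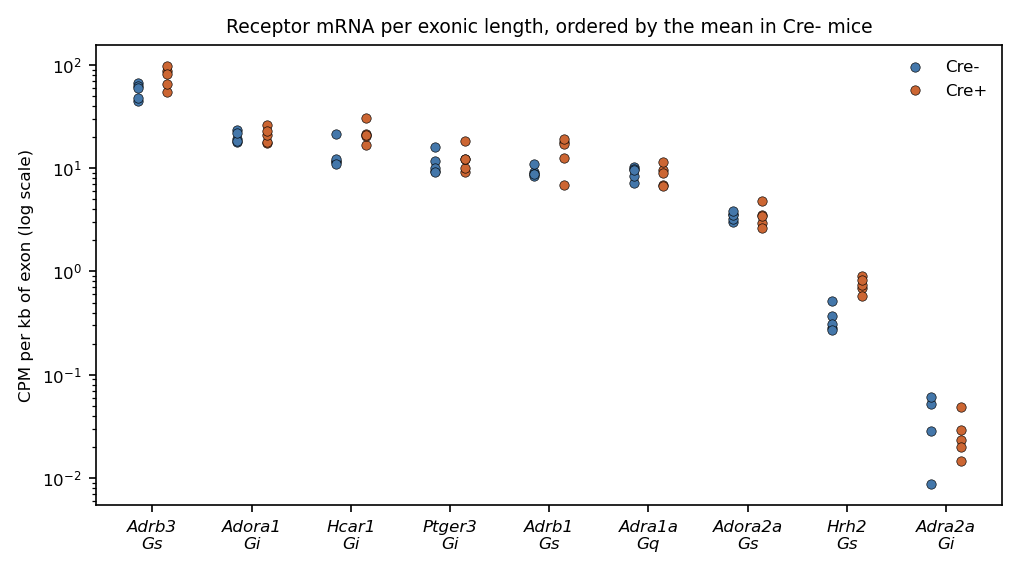
CPM per kb of exon (y axis, log scale) of the 9 receptors (x axis, with the G protein each couples to), ordered by the mean in Cre- mice. Each point is 1 mouse, blue for Cre- and orange for Cre+ (n = 5 each), and the value of 0 for Adra2a in Cre- replicate 2 cannot be drawn on this axis. Adrb3 lies above all other receptors in both genotypes, and Hrh2 and Adra2a lie lowest.

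Hrh2 was the only one of the 9 whose Cre+ mice all lay above all Cre- mice. It encodes the H2 receptor, through which histamine, which is stored mainly by mast cells, raises cAMP. The gene (ENSMUSG00000034987.5) lies on chromosome 13 of GRCm39 from 54346148 to 54390199 on the plus strand, with 5935 bp of exon. In Cre- replicates 1 to 5, Hrh2 had 3.05, 1.67, 2.18, 1.85 and 1.61 CPM. In Cre+ replicates 1 to 5, it had 4.07, 5.32, 4.37, 3.40 and 4.88 CPM. The lowest Cre+ mouse, replicate 4, was above the highest Cre- mouse, replicate 1, and the counts behind these values were 147 to 561. The means were 2.07 ± 0.589 and 4.41 ± 0.742 CPM (SD, n = 5), and the log2 fold change was 1.09 (SE 0.19). Hrh2 was also the only receptor of the 9 called by edgeR at an adjusted p under 0.05, a call that 0.164% of all genes tested received and 0.0339% received as higher. It was also called by DESeq2 and by limma voom using sample quality weights, which called 2.28% (1.06% as higher) and 0.837% of all genes tested. The edgeR call ended when Cre- replicate 2, 3, 4 or 5 or Cre+ replicate 1, 2, 3 or 5 was left out, although the log2 fold change stayed between 1.01 and 1.27. The call held without Cre+ replicate 4 (1.84% of all genes called) and without both libraries high in muscle transcripts (1.62%). Without the 3 lettered Cre+ libraries the log2 fold change was 1.22 (SE 0.24) and not called. Gm16578, which lies on the opposite strand and shares 145 bp of exon with Hrh2, had 0 to 9 counts.

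Mast cell, B cell and macrophage markers were read beside Hrh2, since these cells can carry the receptor. Of 5 mast cell markers tested of 7, 2 were higher in Cre+ mice at an unadjusted p under 0.05 (Mcpt4 and Tpsb2), where 6.4% of all genes were, and edgeR called 0 after adjustment. The summed level of the 7 was 9.78 to 22.8 CPM in Cre- and 5.84 to 41.7 CPM in Cre+ mice, most of it from Kit, and Fcer1a and Ms4a2 had 0 to 4 and 0 to 8 counts. Of 5 B cell markers, 3 were higher at an unadjusted p under 0.05, among them Cd79b and Ms4a1, 0 were called by edgeR and 2 by DESeq2, and the sum was 4.37 to 12.5 CPM in Cre- and 4.85 to 9.22 CPM in Cre+ mice. Macrophage markers summed to 60.5 to 81.8 and 60.5 to 104 CPM, with 0 of 7 at an unadjusted p under 0.05. The part of these cells in the Hrh2 difference was not tested.

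The promoters of Hrh2, Adrb1 and Hcar1, the members with the largest log2 fold changes, are shown because cAMP can act on gene transcription through the cAMP response element. Each is the 250 bases before a transcription start in RefSeq, on build GRCm38.p6, which is not the build of the counts. Capitals mark matches on either strand to TGACG, the core of the cAMP response element, or GGGCGG, the GC box. The full element TGACGTCA, which holds the core, and the TATA box TATAAA were searched too and were found in none of these 3.
Hrh2, chr13:54191879-54192128, plus strand: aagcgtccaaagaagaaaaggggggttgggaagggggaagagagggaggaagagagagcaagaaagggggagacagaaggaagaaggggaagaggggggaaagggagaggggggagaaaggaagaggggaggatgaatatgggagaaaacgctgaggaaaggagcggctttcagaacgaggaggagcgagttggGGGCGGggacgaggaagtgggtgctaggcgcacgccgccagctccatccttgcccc
Adrb1, chr19:56721867-56722116, plus strand: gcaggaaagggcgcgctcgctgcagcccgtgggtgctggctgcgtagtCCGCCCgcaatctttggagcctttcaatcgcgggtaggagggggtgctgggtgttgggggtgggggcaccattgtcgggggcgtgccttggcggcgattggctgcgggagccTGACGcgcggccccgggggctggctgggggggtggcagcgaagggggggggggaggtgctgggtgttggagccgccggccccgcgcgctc
Hcar1, chr5:123880004-123880253, minus strand: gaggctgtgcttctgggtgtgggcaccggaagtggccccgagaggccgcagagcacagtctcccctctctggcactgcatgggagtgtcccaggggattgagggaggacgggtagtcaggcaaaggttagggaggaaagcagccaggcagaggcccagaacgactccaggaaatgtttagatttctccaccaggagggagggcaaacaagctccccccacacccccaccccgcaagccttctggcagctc
The Hrh2 window held 1 GC box and no core, the Adrb1 window 1 of each, and the Hcar1 window neither. Of 32851 RefSeq promoter windows of this length, 17.8% held the core, 1.55% the full element, 32.7% the GC box and 12.4% the TATA box. The RefSeq table matched 6 of the 9 receptors, and Adrb3, Adra1a and Adora2a had no entry. These matches describe the letters of the windows only.

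The beta-adrenergic receptors Adrb1 and Adrb3 had higher means in Cre+ mice, but for both the genotypes overlapped. Adrb1, the beta-1 receptor, lies on chromosome 19 from 56710631 to 56721545 on the plus strand (ENSMUSG00000035283.6, 3382 bp of exon). Its CPM were 31.3, 37.0, 29.5, 28.6 and 29.4 in Cre- replicates 1 to 5. Its CPM were 61.2, 42.0, 23.2, 58.1 and 64.6 in Cre+ replicates 1 to 5. The Cre- mice lay close together, while the Cre+ mice spread from the lowest value of all 10 mice, in replicate 3, to the highest, in replicate 5. The means were 31.1 ± 3.41 and 49.8 ± 17.2 CPM (SD, n = 5), with a log2 fold change of 0.68 (SE 0.24) that was not called. Without Cre+ replicate 3 it was 0.86 (SE 0.12) and was called by edgeR, as were 23 of 17993 genes in all. This mouse was singled out for its Adrb1 value, so nothing is read from that. The spread followed the lettered identifiers, since the 3 lettered Cre+ libraries had 58.1 to 64.6 CPM and the other Cre+ libraries 23.2 and 42.0 CPM. Among libraries without a letter, the log2 fold change was 0.06 (SE 0.20). The part of the letter in the difference was not tested, and within the lettered libraries no comparison could be made because all were Cre+.

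Adrb3, the beta-3 receptor and the main beta-adrenergic receptor of rodent adipocytes, lies on chromosome 8 from 27715804 to 27740644 on the minus strand (ENSMUSG00000031489.16, 3376 bp of exon). Cre- replicates 1 to 5 had 151, 224, 160, 211 and 201 CPM of Adrb3. Cre+ replicates 1 to 5 had 292, 184, 326, 219 and 276 CPM of Adrb3. In 3 Cre+ mice, replicates 1, 3 and 5, the level was above that of every Cre- mouse, while replicates 2 and 4 lay within the Cre- range. The means were 189 ± 32.0 and 259 ± 57.1 CPM (SD, n = 5), and the log2 fold change was 0.45 (SE 0.16), not called. In the lettered Cre+ libraries Adrb3 had 219 to 292 CPM and in the others 184 and 326 CPM, so that, unlike for Adrb1, the log2 fold change without the lettered libraries was 0.43 (SE 0.23). Adrb3 shares 839 bp of exon with the opposite-strand gene Gm45470, which had 1628 to 2218 counts, and strand was not used in counting.

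Because Adrb1 and Adrb3 moved apart in single mice, their ratio was read per mouse. The ratio of Adrb3 to Adrb1 in CPM per kb was 4.83 to 7.40 in Cre- mice. It was 3.77 to 4.77 in 4 Cre+ mice and 14.1 in Cre+ replicate 3, which had the highest Adrb3 and the lowest Adrb1 of all 10 mice.

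**Figure D2:**
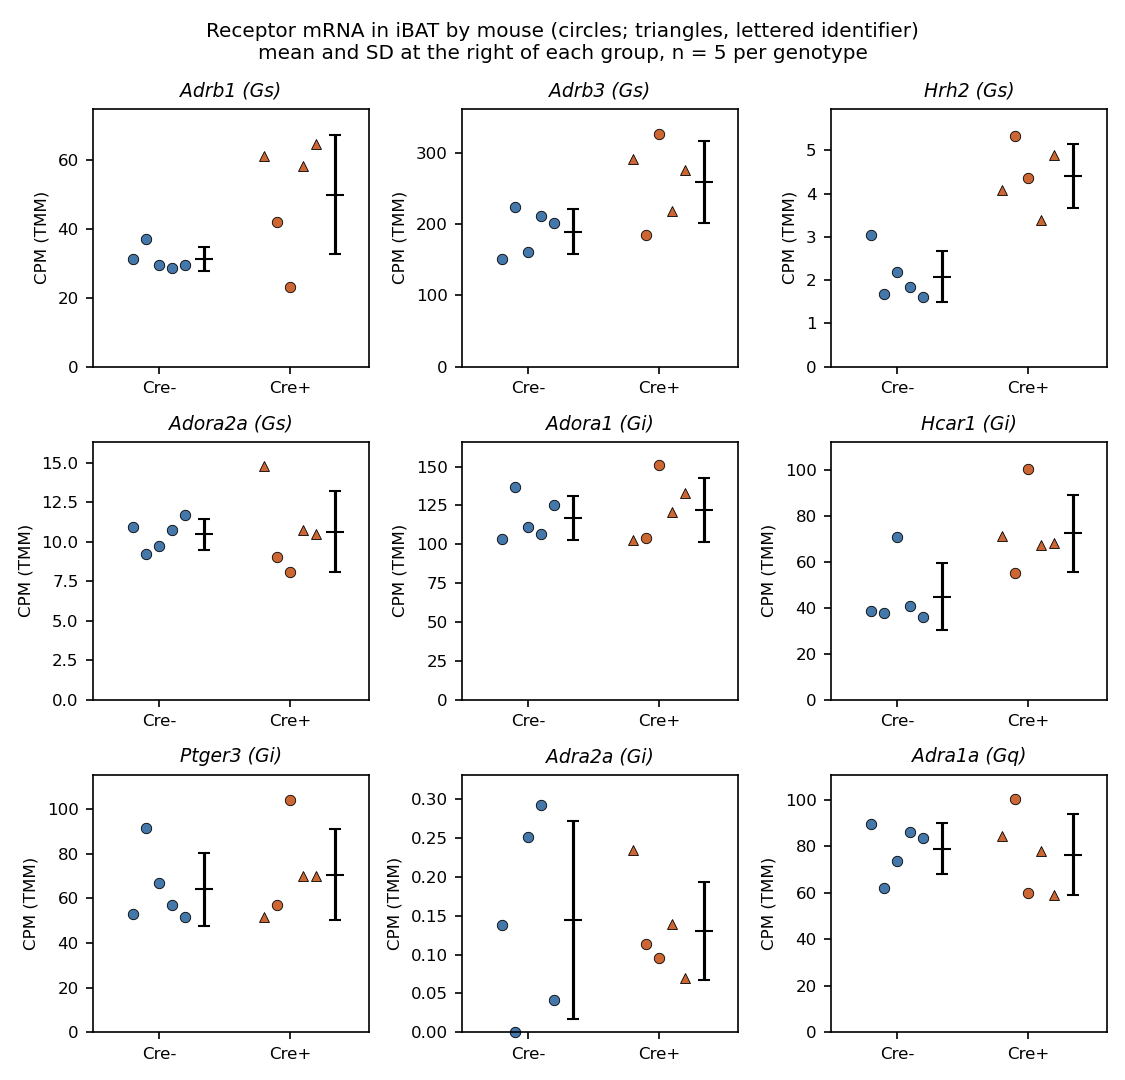
CPM after TMM scaling (y axes, linear and starting at 0) of each receptor in each mouse of the Cre- (blue) and Cre+ (orange) genotype, with replicates 1 to 5 from left to right. Triangles are the 3 lettered Cre+ libraries, and the black bars at the right of each group are the mean and SD (n = 5). Only for Hrh2 do the genotypes not overlap, and for Adrb1 the triangles at 58.1 to 64.6 CPM lie above all other mice.

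Adora2a, the adenosine receptor that couples to Gs, had means that differed by less than the spread between mice. It lies on chromosome 10 from 75152711 to 75170618 on the plus strand (ENSMUSG00000020178.7, 3062 bp of exon). The values were 10.95, 9.21, 9.77, 10.8 and 11.7 CPM in Cre- replicates 1 to 5. They were 14.8, 9.04, 8.10, 10.7 and 10.5 CPM in Cre+ replicates 1 to 5. The Cre+ mice held both the highest and the lowest value, and the log2 fold change was 0.02 (SE 0.14). Without the lettered Cre+ libraries it was -0.29 (SE 0.13), also not called.

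Hcar1 was higher in most Cre+ mice than in most Cre- mice, and only Cre- replicate 3 reached the Cre+ range. It encodes the receptor through which lactate inhibits lipolysis, and lies on chromosome 5 from 124014799 to 124018083 on the minus strand (ENSMUSG00000049241.7, 1 exon of 3285 bp). In Cre- mice, replicate 3 had 70.8 CPM and replicates 1, 2, 4 and 5 had 38.7, 37.5, 40.6 and 36.1 CPM. In Cre+ mice, replicates 1 to 5 had 70.9, 54.9, 100, 67.4 and 68.0 CPM. Without Cre- replicate 3 the genotypes would not overlap, but this mouse was singled out for its value, so nothing is read from that. The means were 44.7 ± 14.7 and 72.3 ± 16.8 CPM (SD, n = 5), with a log2 fold change of 0.69 (SE 0.21) that DESeq2 called and edgeR did not. Leaving out Cre- replicate 3 gave 0.92 (SE 0.14), called by edgeR, and leaving out Cre+ replicate 3, the highest of all, gave 0.54 (SE 0.20), not called. Among libraries without a letter it was 0.79 (SE 0.33).

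Ptger3, Adora1 and Adra1a had log2 fold changes smaller than their SE. Ptger3, the EP3 receptor that is prominent on adipocytes, lies on chromosome 3 from 157272529 to 157351525 on the plus strand (ENSMUSG00000040016.17, 5688 bp of exon). Its levels were 53.2, 91.4, 67.1, 57.2 and 51.7 CPM in Cre- replicates 1 to 5. Its levels were 51.7, 56.8, 104, 70.2 and 69.9 CPM in Cre+ replicates 1 to 5. Apart from Cre- replicate 2 and Cre+ replicate 3, all mice lay between 51.7 and 70.2 CPM, and the log2 fold change was 0.14 (SE 0.21). Adora1, the antilipolytic adenosine receptor, lies on chromosome 1 from 134126961 to 134163169 on the minus strand (ENSMUSG00000042429.9, 5785 bp of exon). Cre- replicates 1 to 5 had 103, 137, 111, 106 and 126 CPM of Adora1. Cre+ replicates 1 to 5 had 102, 104, 151, 121 and 133 CPM of Adora1. The highest and the lowest mouse were both Cre+, and the log2 fold change was 0.07 (SE 0.11). Adora1 shares 1162 bp of exon with Mybph on the other strand, which had 2 to 57 counts.

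Adra1a, the Gq-coupled member, lies on chromosome 14 from 66872700 to 67008617 on the plus strand (ENSMUSG00000045875.14, 8728 bp of exon). It had 89.4, 62.3, 73.8, 86.0 and 83.4 CPM in Cre- replicates 1 to 5. It had 84.6, 101, 59.97, 77.9 and 59.0 CPM in Cre+ replicates 1 to 5. The genotypes overlapped throughout (log2 fold change -0.05, SE 0.15). Adra2a, through which noradrenaline lowers cAMP, was near the detection limit. It lies on chromosome 19 from 54032582 to 54037413 on the plus strand (ENSMUSG00000033717.7, 1 exon of 4832 bp) and had 18, 0, 30, 34 and 4 counts in Cre- replicates 1 to 5. Cre+ replicates 1 to 5 had 26, 12, 10, 14 and 8 counts of Adra2a. The count of 0 in Cre- replicate 2 allows up to 0.0341 CPM (3 counts, for counting error only). The log2 fold change was -0.18 (SE 0.66). With few counts and a wide spread between mice, above all in Cre-, no difference was detected.

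Counted over the 9 receptors, 7 log2 fold changes were above 0 and 2 below, with a median of 0.14 against 0.00 over all genes tested. edgeR called 1 (Hrh2) and DESeq2 2 (Hcar1 and Hrh2). Groups did not overlap for 1 of 9, as for 2.67% of all genes tested (1.2% with Cre+ higher). Since the genes were chosen with this comparison known, nothing is read from these counts.

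The other receptors of the same families included 14 genes, of which 11 were tested. edgeR called 0 of them and DESeq2 called Hcar2. At an unadjusted p under 0.05, 2 were higher (Hcar2 and Adra1d), where 6.4% of all genes tested were. The median log2 fold change of the 11 was 0.39, against 0.00 over all genes tested. Of the 11, 10 were above 0, as were 8905 of all 17690 genes tested. The list was chosen with earlier results of these data known, so nothing is read from these counts. Hcar2, the receptor for beta-hydroxybutyrate and niacin, which is Gi-coupled like Hcar1, had 3.66, 5.37, 8.45, 7.33 and 4.05 CPM in Cre- replicates 1 to 5 and 10.5, 7.28, 22.4, 11.3 and 15.3 CPM in Cre+ replicates 1 to 5. Only Cre+ replicate 2 lay within the Cre- range, and the log2 fold change was 1.21 (SE 0.33, edgeR adjusted p = 0.189, DESeq2 adjusted p = 0.0406). Without Cre+ replicate 3, the highest mouse, it was 0.94 (SE 0.28). The ratio of Hcar1 to Hcar2 in CPM per kb was 4.74 ± 1.12 in Cre- and 3.43 ± 0.811 in Cre+ mice (SD, n = 5), with overlapping ranges of 3.26 to 6.201 and 2.61 to 4.43. Adra1d, an alpha-1-adrenergic receptor, had 10.03 to 13.3 CPM in Cre- and 11.5 to 21.1 CPM in Cre+ mice, and its log2 fold change was 0.36 (SE 0.15, edgeR adjusted p = 0.348). Ptger2, a Gs-coupled prostaglandin E2 receptor, had 0.25 (SE 0.16, edgeR adjusted p = 0.567). Hrh1, Adra1b, Adra2b, Adra2c and Adora2b stayed below 0.55 CPM in every mouse, and Hrh3, Hrh4 and Adora3 did not pass the filter.

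**Figure D3:**
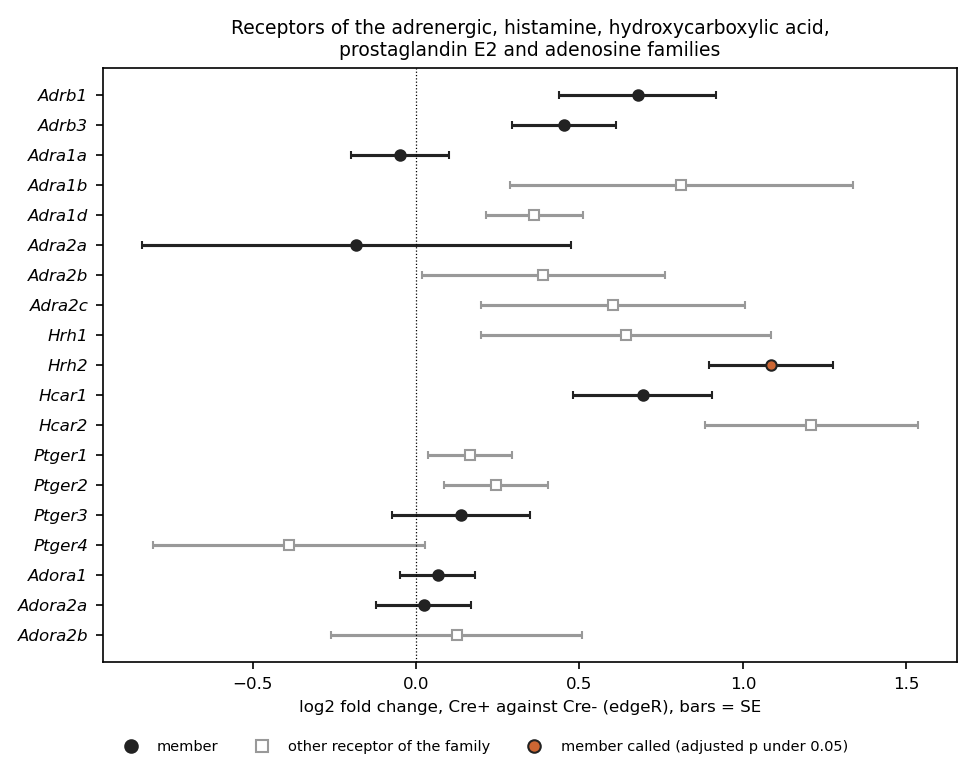
Log2 fold change of Cre+ against Cre- mice (x axis, edgeR, bars = SE, n = 5 per genotype) of the 9 receptors described (circles) and of 10 other receptors of their families that passed the filter (squares). The orange circle is Hrh2, with 1.09 the only one called, and Hcar2 has the largest value, 1.21, with a wider SE.

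Summed by the G protein they couple to, the Gs-coupled receptors Adrb1, Adrb3, Hrh2 and Adora2a had 69.1 ± 9.76 CPM per kb (SD, n = 5) in Cre- and 95.7 ± 16.8 CPM per kb in Cre+ mice. The ranges, 58.0 to 80.5 and 70.8 to 110 CPM per kb, overlapped, and Adrb3 made up most of both sums. The Gi-coupled receptors Adora1, Hcar1, Ptger3 and Adra2a had 45.1 ± 6.31 and 55.6 ± 11.7 CPM per kb. The Gs-coupled share of all 9 was 55.9 ± 4.16% in Cre- and 59.7 ± 4.17% in Cre+ mice, a difference smaller than 1 SD. It thus stayed the larger class in both genotypes by this measure. When CPM were not divided by gene length, the Gs share was 43.2% and 48.5% and the Gi share 41.9% and 39.6%, so the margin between the classes depends on the division.

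Downstream of the receptors, G protein subunits included 26 genes. Of these, 24 were tested, edgeR and DESeq2 called 0, 1 was higher (Gnb5) and 1 lower (Gnaq) at an unadjusted p under 0.05, and the median log2 fold change was 0.01. Gnas, which encodes the Gs alpha subunit, had -0.16 (SE 0.09, edgeR adjusted p = 0.499). Genes that switch receptors off, the arrestins, receptor kinases and regulators of G protein signalling (RGS), included 24 genes with 21 tested and a median of -0.04. edgeR called 0 of these, 1 was higher and 4 lay lower before adjustment (p under 0.05), where 6.4% and 5.95% of all genes were, and DESeq2 called Rgs3 higher and Rgs2 and Rgs4 lower.

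Rgs2, which ends signalling mainly of Gq, had 301, 200, 328, 448 and 213 CPM in Cre- replicates 1 to 5 and 129, 227, 146, 120 and 171 CPM in Cre+ replicates 1 to 5. Only Cre+ replicate 2 reached the Cre- range (log2 fold change -0.91, SE 0.25, edgeR adjusted p = 0.191, DESeq2 adjusted p = 0.00507). Rgs4, which acts on Gi and Gq, had 15.1, 11.3, 14.7, 15.1 and 14.2 CPM in Cre- and 11.4, 10.8, 9.74, 9.51 and 8.05 CPM in Cre+ replicates 1 to 5. Its genotypes overlapped only between Cre- replicate 2 and Cre+ replicate 1 (-0.51, SE 0.11, edgeR adjusted p = 0.0915, DESeq2 adjusted p = 0.00506). Without the libraries high in muscle transcripts, edgeR gave -0.57 (SE 0.11, adjusted p = 0.0294) and called 1.62% of all genes. These libraries include Cre- replicate 2, the lowest Cre- mouse for Rgs4, so nothing is read from that. Rgs3 had 35.3 to 45.9 CPM in Cre- mice and 57.8 to 69.5 CPM in Cre+ mice other than replicate 4, which had 38.0 CPM. For Rgs3, edgeR gave 0.54 (SE 0.14, adjusted p = 0.134). Without Cre+ replicate 4, edgeR gave 0.66 (SE 0.08, adjusted p = 0.00256) and called 1.84% of all genes, against 0.164% with all mice. This mouse was singled out for its Rgs3 value, so nothing is read from that. Rgs5, a pericyte transcript, had -0.29 (SE 0.09, edgeR adjusted p = 0.1999) and lower values in all 5 Cre+ mice, 338 to 424 CPM against 430 to 544 CPM. Among the 21 genes tested of this list, groups did not overlap for 1, as for 2.67% of all genes tested.

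Genes that supply or remove the ligands were read next, 33 in all with 27 tested. edgeR called 0 and DESeq2 2, and the median log2 fold change was 0.01. For histamine, Hdc, which synthesizes it, had 5.94 to 8.45 CPM in Cre- and 4.57 to 11.5 CPM in Cre+ mice (0.04 on the log2 scale, SE 0.21), and Hnmt, which inactivates it, had -0.10 (SE 0.10). Th, which is needed for catecholamine synthesis, had 0 counts in all 10 libraries, which allows up to 0.0230 to 0.0341 CPM per library. The lactate dehydrogenase gene Ldha and the lactate transporter gene Slc16a1 had 0.08 (SE 0.10) and 0.00 (SE 0.10). The nucleoside transporter gene Slc29a2, which carries adenosine, was higher in all 5 Cre+ mice (4.39 to 5.93 CPM) than in all Cre- mice (3.28 to 4.32 CPM), with 0.43 (SE 0.12, edgeR adjusted p = 0.189, DESeq2 adjusted p = 0.0311). Ptges3, a prostaglandin E synthase that is also an Hsp90 co-chaperone, was lower in all 5 Cre+ mice (42.4 to 56.6 CPM against 58.5 to 80.3 CPM), with -0.47 (SE 0.10, edgeR adjusted p = 0.0835, DESeq2 adjusted p = 0.00759). Without Cre+ replicate 4, edgeR gave Ptges3 an adjusted p of 0.0496 and called 1.84% of all genes. Of the 27 genes tested, groups thus did not overlap for 1 with Cre+ higher and 1 with Cre+ lower. Over all genes tested this held for 2.67%, either direction.

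Of 15 genes that cAMP induces in brown adipocytes, edgeR and DESeq2 called 0. Of these, 1 (Junb) was higher at an unadjusted p under 0.05, where 6.4% of all genes tested were. The median log2 fold change was -0.36, against 0.00 over all genes tested. Of the 15, 12 were below 0, as were 8785 of all 17690 genes tested. Ucp1 had 0.18 (SE 0.14, edgeR adjusted p = 0.623), Ppargc1a, a coactivator of mitochondrial genes, -0.19 (SE 0.50, adjusted p = 0.910) and Dio2, which activates thyroid hormone, -0.40 (SE 0.47, adjusted p = 0.771). Per1, a clock gene that cAMP also induces, had 73.2 to 122 CPM in Cre- mice, 22.9 to 36.5 CPM in 4 Cre+ mice and 144 CPM in Cre+ replicate 4. Its log2 fold change was -0.87 (SE 0.53, edgeR adjusted p = 0.554). Without Cre+ replicate 4 it was -1.69 (SE 0.19, edgeR adjusted p = 0.00256), where edgeR called 1.84% of all genes, against 0.164% with all mice. This mouse was singled out for its Per1 value, so nothing is read from that.

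Cre+ replicate 3 stood apart in both the receptors and these cAMP-responsive genes. It had the highest level of all 10 mice for Adrb3, Hcar1, Ptger3 and Adora1 and the lowest for Adrb1 and Adora2a. It also had the lowest level of 7 of the 15 cAMP-responsive genes, among them Ppargc1a with 48.8 CPM, where the other mice had 106 to 394 CPM, and Dio2 with 79.2 CPM, where the others had 250 to 623 CPM. For 1 other gene of this list, the elongase gene Elovl3, it had the highest level, 78.0 CPM, where the others had 8.38 to 48.5 CPM. Summed fibroblast markers were also highest in this mouse, 386 CPM, where the other mice had 187 to 332 CPM. So were summed Schwann cell markers, 164 CPM, where the others had 76.5 to 151 CPM. Among Cre+ mice, it also kept the most RetSat. The part of these values in its receptor levels was not tested. Cre+ replicate 4 lay at the other end for 4 of the 15 cAMP-responsive genes, including Ppargc1a (394 CPM) and Per1 (144 CPM), while its receptor levels were neither the highest nor the lowest of the 10 mice for any member.

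**Figure D4:**
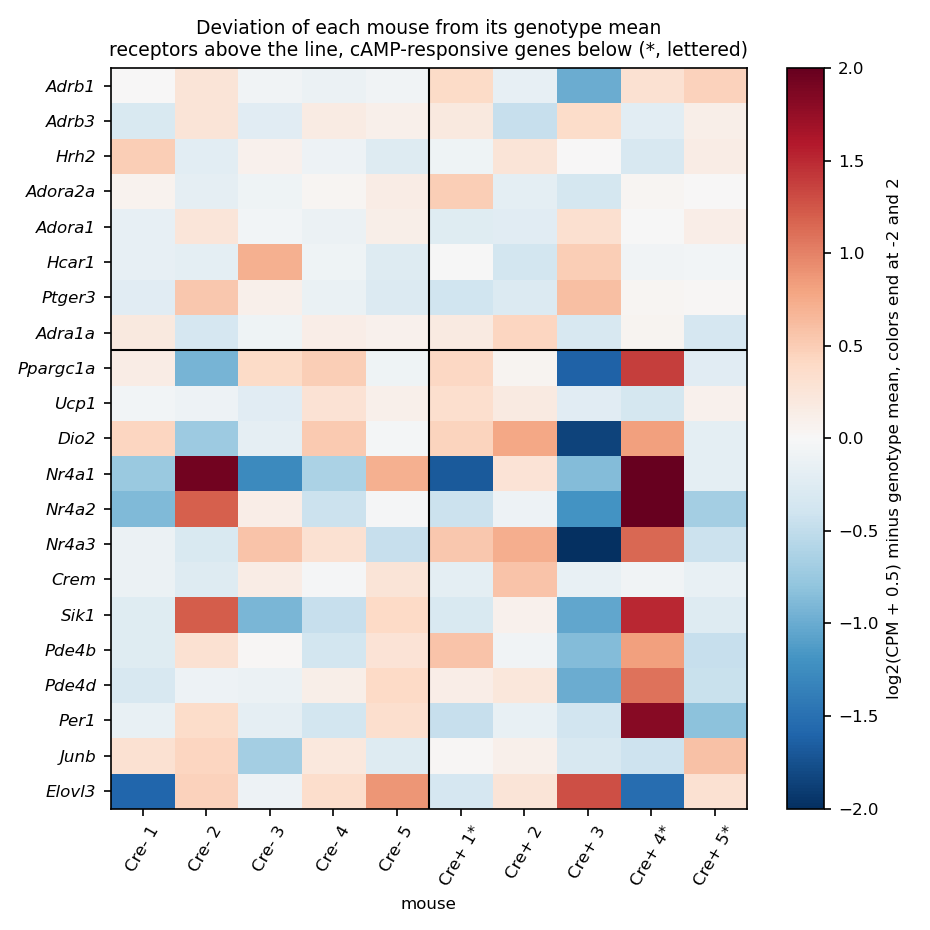
Deviation of each mouse from the mean of its genotype, as log2(CPM + 0.5), for 8 receptors (above the horizontal line) and 13 cAMP-responsive genes (below it), with mice as columns and lettered libraries marked by an asterisk. Red is above and blue below the genotype mean, colors end at -2 and 2, and Adra2a, Fos and Fgf21 are left out for their low levels. Cre+ replicate 3 shows blue for Adrb1, Ppargc1a and Dio2 beside red for Adrb3, Hcar1 and Ptger3, and Cre+ replicate 4 shows red for most cAMP-responsive genes and pale colors for the receptors.

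Which receptors varied together from mouse to mouse was tested within the genotypes, a measure that does not use their difference. For the 8 receptors with a mean of at least 1 CPM, 28 pairs were compared after the genotype means of log2 CPM were removed (n = 10 mice), with p-values from two-sided exact permutations within genotypes. After adjustment over the 28 pairs, 0 pairs passed 0.05 for Pearson's r, and 4 were under 0.05 before it. Adra1a and Adora1 varied in opposite directions (r = -0.86, exact permutation p = 0.00764, adjusted p = 0.0719, rho = -0.85, exact permutation p = 0.00931, adjusted p = 0.261), in Cre- mice (r = -0.77) and in Cre+ mice (r = -0.91) alike. Without the 2 mice farthest from the median of Adra1a, r was -0.84. Ptger3 and Adora1, both Gi-coupled, varied in the same direction (r = 0.83, exact permutation p = 0.00611, adjusted p = 0.0719, rho = 0.65, exact permutation p = 0.0761, adjusted p = 0.533). This relation rested in part on Cre+ replicate 3 and Cre- replicate 2, without which r was 0.53. Adra1a and Ptger3 had r = -0.82 (exact permutation p = 0.00771, adjusted p = 0.0719, rho = -0.65, exact permutation p = 0.0761, adjusted p = 0.533). Without Cre+ replicate 5 and Cre- replicate 2, r was -0.89. Ptger3 and Adora2a had r = -0.74 (exact permutation p = 0.0247, adjusted p = 0.173, rho = -0.80, exact permutation p = 0.0192, adjusted p = 0.268). Without Cre+ replicate 3 and Cre- replicate 2, r was -0.55.

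The genes whose variation between mice of a genotype was most like that of each receptor were sought among 11356 genes. Pearson's r was taken over the 10 libraries after the genotype means of log2 CPM were removed, so it does not reflect the difference between the genotypes. The r values below are the highest of many and are given with no p. Hrh2 was closest to Mndal (r = 0.96, rho = 0.95), Setdb1 (r = 0.94) and Znhit6 (r = 0.92). Mndal belongs to a family of interferon-inducible genes and Setdb1 encodes a histone H3 lysine methyltransferase. Adrb3 was closest to Tbc1d17 (r = 0.92), Slc35c2 (r = 0.91) and Ftl1 (r = 0.89), the last encoding ferritin light chain. Adrb1 was closest to Apba3 (r = 0.95), Eva1b (r = 0.94) and Mrpl4 (r = 0.93), but for Apba3 and Eva1b r was 0.29 and -0.19 within Cre- mice and 0.99 in both cases within Cre+ mice. Hcar1 was closest to Igfbp5 (r = 0.94), which encodes a binding protein of insulin-like growth factors, Cpxm2 (r = 0.94) and Tspan11 (r = 0.93). Adora1 was closest to Exosc7 (r = 0.98), a subunit of the RNA exosome, Sil1 (r = 0.98) and Cutc (r = 0.98). Adra1a was closest to the autophagy gene Atg12 (r = 0.98), Aftph (r = 0.98) and Smim13 (r = 0.96). Ptger3 was closest to Prune2 (r = 0.97), Slc37a4 (r = 0.97) and Ssc4d (r = 0.96). Adora2a was closest to Vps9d1 (r = 0.95), Atg4d (r = 0.93) and the Wnt coreceptor gene Lrp5 (r = 0.93), and Adra2a, with its few counts, to Cyp1b1 (r = 0.97), Jrk (r = 0.95) and Sulf1 (r = 0.95). No gene was named for more than 1 receptor.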

How the data were processed

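After poly(A) selection, iBAT RNA of 5 mice per genotype was sequenced. Per the labels and the submitters' processing notes, the authors used Trimmomatic for trimming, STAR for alignment to GRCm39 and featureCounts 2.0.1 with GENCODE M28 for counting. The deposited values are raw counts per gene. Mates were counted separately and without regard to strand, and multimapping reads were left out. RNA was isolated with an RNeasy kit per the labels, or with PeqGOLD per the methods of the paper.

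Groups follow the genotype in the labels. Genotypes were compared by the quasi-likelihood F test of edgeR 4.0.16 (R 4.3.3), with TMM scaling and robust fits. The filter, filterByExpr, used a minimum count of 10 and a minimum total of 15. P-values were adjusted by Benjamini-Hochberg over 17690 genes, and a gene was called at an adjusted p under 0.05. The SE is the size of the log2 fold change divided by the square root of F. Log2 CPM had a prior count of 2. DESeq2 1.42.0 with default parameters, limma 3.58.1 (voom with sample quality weights), other scalings and filters, the replicate number as a block, and leaving out libraries were alternatives. In simulated counts with 200 of 17690 genes changed, edgeR recovered 31.6% of those with a log2 change of 0.5 and 62.2% of those with a log2 change of 1, with 5 false calls. No 2 libraries of a genotype agreed within sampling noise.

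Gene lists were written from textbook knowledge, and a few of their genes are counted but not reported singly here. The receptors and the lists were chosen with earlier results of these data known. Named genes are the 9 receptors, RetSat, Ucp1, Adipoq, genes called or up to 4 with the smallest p in each list, and the 3 nearest patterns per receptor with a mean log2 CPM of at least 0. Other genes named, and the mice singled out, were chosen after their values were seen. The markers read beside Hrh2 and the fold changes given for single alternatives were likewise picked after the values were seen.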

Additional observations from a re-analysis of the deposited data

Results flagged for a closer look

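In each genotype, the 5 values of each of 29 genes (the 9 receptors and the named genes of the lists) were checked for a mouse far from the others, 58 groups in all, of which chance gives about 1 in 20. The gap to the nearest mouse, divided by the range of the 5 values, exceeded Dixon's critical value in 3 groups. Hcar1 had 70.8 CPM in Cre- replicate 3 and 36.1 to 40.6 CPM in the other Cre- mice. Rgs4 had 11.28 CPM in Cre- replicate 2, one of the libraries high in muscle transcripts, and 14.2 to 15.1 CPM in the other Cre- mice. Per1 had 144.1 CPM in Cre+ replicate 4, the other such library, and 22.9 to 36.5 CPM in the other Cre+ mice.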

How the results depend on the processing

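edgeR called 29 genes in all, and 393 were called by DESeq2, 148 by limma voom, 92 with no filter on low counts, 289 without the libraries high in muscle transcripts and 9 to 331 without 1 library each, the highest without Cre+ replicate 4. Of the 9 receptors, 1 was called, 2 by DESeq2 (Hcar1 and Hrh2), 0 without the 3 lettered Cre+ libraries, and 0 to 1 without 1 library each. That 1 was Hrh2 without Cre- replicate 1 or Cre+ replicate 4, Hcar1 without Cre- replicate 3 and Adrb1 without Cre+ replicate 3. In the other lists 0 genes were called, apart from the following. DESeq2 called 1 of the other receptors, 3 desensitisation and RGS genes and 2 ligand genes. Of the desensitisation and RGS genes and the ligand genes, limma voom called 2 and 1, no filter on low counts gave 1 and 1, and leaving out both libraries high in muscle transcripts gave 2 and 1, with 1 cAMP-responsive gene (Per1). Without 1 library each, 0 to 1 desensitisation and RGS, ligand and cAMP-responsive genes were called, in each case 1 without Cre+ replicate 4. Without division by gene length, the Gs, Gi and Gq shares were 43.2%, 41.9% and 14.9% in Cre- and 48.5%, 39.6% and 11.8% in Cre+ mice. The causes were not tested. Of the log2 fold changes of the receptors under the alternatives, 166 moved by less than 1 SE and 4 by more (Adrb1 and Adora2a without the lettered libraries, Hcar1 without Cre- replicate 3 and Adora2a without Cre+ replicate 1). All alternatives kept Adrb1, Adrb3, Hcar1 and Hrh2 above 0, and those of Adra1a, Adra2a, Ptger3, Adora1 and Adora2a took both signs. Adra2a has no value with at least 10 counts required in every library.

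With the replicate number as a block, 23 genes were called, and of the receptors 1, Hcar1 (0.71, SE 0.08) in place of Hrh2 (1.11, SE 0.19). The labels do not tie same-numbered mice to each other, and only 3 of the 5 correlations of same-numbered mice were above 0.1 (-0.20 to 0.22 over all), so the numbers were not treated as pairs. As a hint from the data, not the design, 5 of 10 libraries correlated best with their own number, so a pairing is not excluded by these values.

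Depth limits Adra2a, with 0 to 34 counts, most. Each mate of a pair was counted by itself, so intervals and floors cover counting error only. Overlapping genes on the other strand can alter the counts of Adrb3, Hrh2 and Adora1, and the direction was not tested.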
